A study of Mus musculus with 6 samples.

Results

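H3K56ac was mapped by ChIP-seq in V6.5 mouse embryonic stem cells (mESCs), a line that self-renews on feeder cells with LIF. The cells carried a lentiviral scrambled shRNA (Scramble) or a shRNA against *Sirt6* (Sirt6 KD), so both groups had been transduced. Each group had 2 H3K56ac libraries and 1 input library, 6 libraries in all, and the question of the design was where H3K56ac lies in control and knockdown cells. The processed file used here is 1 merged list of 11106 peak positions, in which the library and the height of a peak are not recorded. A comparison of Scramble with Sirt6 KD was therefore not made here, and the knockdown and the depth of the libraries could not be examined from the list.

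Of the 11106 peaks, 891 (8.02%) lay at CpG-poor promoters, and these are described here. They were selected on width, position and sequence: wider than 320 and narrower than 3000 bp, with a midpoint within 1 kb of the annotated 5′ end of a protein-coding gene whose CpG observed/expected ratio was at most 0.6. The ratio compares the CpG dinucleotides found in the 500 bp either side of the 5′ end with the number that its C and G content would give. A further 61 peaks of the same widths were dropped because they also lay within 1 kb of a 5′ end with a higher ratio. The 891 peaks belonged to 945 genes, since 839 had 1 gene, 50 had 2 genes and 2 had 3 or more. No gene had more than 1 such peak, in a list in which neighbouring peaks were never closer than 1000 bp. Positions refer to GRCm38 (mm10), with genes from GENCODE M21.

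H3K56ac is an acetyl mark on the core of histone H3, near the point where DNA enters and leaves the nucleosome. It is placed by acetyltransferases such as CBP and p300, removed by deacetylases that include SIRT6, and is found at active promoters and enhancers. Most vertebrate promoters of broadly used genes lie in CpG islands, which stay unmethylated. CpG-poor promoters lack such an island, are often methylated where the gene is silent, and serve many tissue-restricted genes. Some CpG-poor promoters use a TATA box to place the transcription start.

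The CpG ratio was also taken around the peak midpoint and at other transcript starts. The window around the midpoint overlapped the one that defined the peaks. In 590 of 891 peaks (66.2%) the midpoint lay within 500 bp of the 5′ end. The shares below therefore describe the peaks and are not an independent check. Over the 1 kb around the peak midpoint, 728 of 891 peaks (81.7%, Wilson 95% interval 79.0 to 84.1%) also had a ratio of at most 0.6. For 179 peaks (20.1%) another annotated transcript of a protein-coding gene started within 1 kb at a sequence with a ratio above 0.6, and 649 peaks (72.8%) were CpG-poor on both counts. *Nfatc3*, a transcription factor of calcium signalling, had the widest peak (2944 bp), and showed the mismatch: its ratio was 0.413 at the gene 5′ end and 0.859 at the peak centre. At *Wtap*, a subunit of the RNA m6A methyltransferase complex, the ratio was 0.0464 at the 5′ end and 0.441 at the centre, with a transcript start of higher ratio nearby. *Klf1*, an erythroid transcription factor, likewise had 0.0783 at the 5′ end and 0.4999 at the centre. *Gm14393*, in contrast, was CpG-poor throughout (0.0378 and 0.0429), as was *AU018091* (0.0863 and 0.115). *Cabyr*, a calcium-binding sperm protein gene, completed the 5 lowest ratios with 0.0810 at the 5′ end and 0.396 at the centre. Intervals here and below cover the counting of peaks or genes in 1 merged list, not the spread between libraries.

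The sequences below show the promoter type that the TATA counts turn on, and the binding site found at *Nanog*. The first 7 run from 60 bases before to 20 bases from the annotated 5′ end, on the gene's strand, with TATAAA in capitals. *Nanog* is shown on its own strand around the OCT4-SOX2 composite motif, in capitals, whose first base lies 75 bases before the 5′ end.
Lefty2, chr1:180893048-180893127, plus strand: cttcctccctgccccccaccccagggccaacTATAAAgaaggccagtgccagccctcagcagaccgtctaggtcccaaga
Nr0b1, chrX:86191704-86191783, plus strand: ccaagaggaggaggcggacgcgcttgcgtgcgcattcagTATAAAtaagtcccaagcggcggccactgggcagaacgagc
Icam1, chr9:21015925-21016004, plus strand: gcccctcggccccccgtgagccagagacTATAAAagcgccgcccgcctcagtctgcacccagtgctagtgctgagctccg
Id1, chr2:152736191-152736270, plus strand: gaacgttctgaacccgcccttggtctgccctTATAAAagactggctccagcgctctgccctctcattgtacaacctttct
Aqp3, chr4:41098164-41098243, minus strand: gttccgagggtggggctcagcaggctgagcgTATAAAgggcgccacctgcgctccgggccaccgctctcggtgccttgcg
Tubb2a, chr13:34077988-34078067, minus strand: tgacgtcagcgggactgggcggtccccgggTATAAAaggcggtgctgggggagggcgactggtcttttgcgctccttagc
Art1, chr7:102101683-102101762, plus strand: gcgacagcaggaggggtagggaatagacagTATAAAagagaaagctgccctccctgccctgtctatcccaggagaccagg
Nanog, chr6:122707364-122707477, plus strand: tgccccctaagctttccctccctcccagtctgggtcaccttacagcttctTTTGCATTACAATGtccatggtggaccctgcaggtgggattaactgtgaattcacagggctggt

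Promoters with an H3K56ac peak were a minority of CpG-poor promoters. Of 21938 protein-coding genes, 945 (4.31%) had a CpG-poor promoter peak, which is 7.97% of the 11860 genes with a ratio of at most 0.6. A peak midpoint of any width lay within 1 kb of 6538 protein-coding genes (29.8%). The share of genes with such a midpoint differed with the ratio. It was 0.337% (interval 0.155 to 0.734%) of 1778 genes with a ratio up to 0.1, 3.43% (2.76 to 4.26%) of 2275 genes between 0.2 and 0.3, and 18.9% (17.0 to 21.1%) of 1404 genes between 0.4 and 0.5. Just below the limit, between 0.5 and 0.6, it was 35.2% (32.9 to 37.5%) of 1671 genes, and just above it, between 0.6 and 0.7, 46.3% (44.4 to 48.2%) of 2556 genes. The shares thus ran across the limit without a gap, and 465 of the 891 peaks (52.2%) had a ratio above 0.5, while 92 (10.3%) had one of at most 0.3. These shares describe the selection and carry no test.

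**Figure D1:**
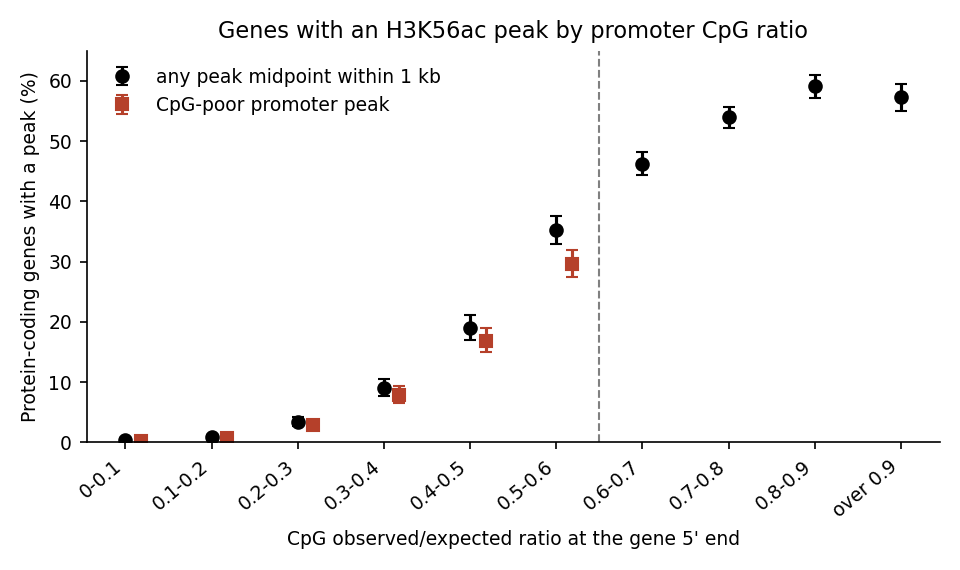
Share of protein-coding genes (%, vertical axis) with an H3K56ac peak midpoint within 1 kb, by the CpG observed/expected ratio at the gene 5′ end (bins, horizontal axis). Black circles show peaks of any width, red squares the CpG-poor promoter peaks, bars are Wilson 95% intervals and the dashed line marks the ratio of 0.6; the share ran from 0.337% in the lowest bin to 59.1% between 0.8 and 0.9.

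The peaks closest to each limit of the selection differed little. *Cwc25*, *Zfp963*, *Zfp62*, *Stx7* and *Mdp1* were just inside, with ratios from 0.5993 for *Mdp1* to 0.5997 for *Cwc25*. Just outside were *Myg1*, *Cblb*, *Ttc26*, *Pfkfb4* and *Sord*, with ratios of 0.6003 for *Myg1* to 0.6011 for *Sord*. By width, the narrowest peaks kept were at *Nqo2* (323 bp), *Setmar* (337 bp), *Cd63* (343 bp), *Oprk1* (345 bp) and *Ttc23* (346 bp). Those just under the limit were at *Cpt2* (320 bp), *Frem2* (319 bp), *Bmp4* (310 bp), *Sh3bgrl3* (305 bp) and *Prkx* (303 bp). Above the upper limit, 41 otherwise qualifying peaks were left out, beginning with *Hmbox1* (3073 bp), *Sars* (3156 bp), *Etv1* (3181 bp), *Rcc2* (3189 bp) and *Arid1a* (3210 bp). Below the lower limit 44 were left out.

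The pluripotency network was the gene list with the most named members, and its CpG-poor promoters often had wider peaks. Of 32 listed genes, 25 had a CpG-poor 5′ end and 5 of these 25 (20%) had a selected peak, beside 7.97% of all CpG-poor genes. The 7.97% is not matched on the ratio. The median ratio of the 25 was 0.384. A selected peak was found at 7.84% of all genes between 0.3 and 0.4 and at 29.6% between 0.5 and 0.6. *Nanog*, the homeobox factor that stabilises self-renewal, had a peak of 2924 bp at chr6:122706440-122709363, the third widest of those selected, with its midpoint 413 bp inside the gene in an exon and a ratio of 0.303. *Tdh*, a mitochondrial threonine dehydrogenase on which mESCs depend for one-carbon units, had a peak of 2052 bp centred 117 bp downstream of its 5′ end. *Dppa4*, a chromatin factor of pluripotent cells, had a peak of 948 bp, centred 556 bp into the gene in an intron. *Nr0b1* (DAX1), a nuclear receptor that interacts with OCT4, had a peak of 924 bp centred 953 bp into the gene, in an exon. *Lefty2*, a secreted inhibitor of Nodal, had a peak of 891 bp centred 847 bp downstream, in an intron. The peaks of *Nanog* and *Tdh* thus covered the 5′ end, whereas those of *Dppa4*, *Nr0b1* and *Lefty2* lay wholly downstream of it.

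A further 6 CpG-poor pluripotency genes had a peak that was too wide for the selection. Of all 11860 CpG-poor genes, 46 had a peak of such width with no 5′ end of a higher ratio within 1 kb of its midpoint. The 6 were counted whether or not a 5′ end of a higher ratio was near. *Pou5f1*, which encodes OCT4, lay under a peak of 6152 bp. *Tcl1*, an activator of AKT, lay under 3830 bp, *Zfp42* (REX1) under 3747 bp, *L1td1* under 3729 bp, *Fbxo15* under 3610 bp and *Nodal*, the TGF-beta family ligand, under 3577 bp. At another 6 CpG-poor genes of the list, *Tfcp2l1*, *Prdm14*, *Sall4*, *Lin28a*, *Dppa5a* and *Gdf3*, a peak reached to within 1 kb of the 5′ end but its midpoint lay farther away. The other 8 CpG-poor genes of the list had no peak base within 1 kb. Width was one of the values used to select the peaks, and a merged peak can join the peaks of several libraries, so no test was made.

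Genes of feeder cells, which the culture could contain, and of tissues it should not contain were used to check the cell type. None of the 20 CpG-poor genes of the feeder fibroblast list, among them *Col1a1*, *Pdgfra* and *Thy1*, had a peak base within 1 kb of the 5′ end. Of the 4 CpG-rich genes of that list, *Fn1*, which encodes fibronectin, had a peak of 7077 bp that came within 1 kb without its midpoint. None of the 20 liver genes, from *Alb* to *Ttr*, had one. Of 17 CpG-poor skeletal muscle genes, 16 had none, and at *Actn3*, a sarcomeric actinin, a peak of 591 bp came within 1 kb without having its midpoint there. *Mylpf*, a myosin light chain of fast muscle with a CpG-rich 5′ end (ratio 0.841), had a peak midpoint within 1 kb, in a peak of 3316 bp. The CpG-poor genes of the feeder, muscle and liver lists had lower median ratios (0.292, 0.263 and 0.210) than those of the pluripotency list (0.384), and the part of this difference in the counts was not tested. A list of peaks from which lower enrichment is missing does not show that these genes lacked the mark.

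Germline and early embryo genes contributed 3 of 17 CpG-poor list genes (17.6%, beside 7.97% of all CpG-poor genes). The 7.97% is not matched on the ratio, whose median was 0.371 for the 17. *Ooep*, an oocyte protein of the subcortical maternal complex, had a peak of 1793 bp with a ratio of 0.408. *Piwil2*, a piRNA-binding Argonaute protein, had one of 709 bp centred 619 bp into the gene. *Trap1a*, an X-linked gene that encodes a tumour antigen, had one of 654 bp centred 445 bp downstream. The 14 other CpG-poor genes of this list had no peak base within 1 kb.

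Genes of epithelial adhesion and the stem cell surface contributed 3 of 13 CpG-poor list genes (23.1%, beside 7.97% of all CpG-poor genes). The median ratio of the 13 was 0.412, and 16.9% of all genes between 0.4 and 0.5 had a selected peak. *Bst2*, which encodes tetherin, had a peak of 1487 bp centred 142 bp into the gene. *Icam1*, an adhesion ligand for integrins, had one of 1322 bp centred 453 bp downstream, and *Prss8*, a membrane-anchored serine protease, had one of 951 bp centred at 270 bp. All 3 peaks covered the 5′ end. *Cldn6*, a tight junction claudin, had a peak of 270 bp, too narrow for the selection, and at *Epcam* and *Cldn4* the midpoint lay more than 1 kb away. *Tjp3* had a peak of 430 bp that was dropped because its midpoint also lay within 1 kb of a CpG-rich 5′ end.

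Among glycolysis genes, 2 of 10 with a CpG-poor 5′ end had a selected peak (20%, beside 7.97% of all CpG-poor genes). The median ratio of the 10 was 0.351, and 7.84% of all genes between 0.3 and 0.4 had a selected peak. *Ldhb*, the heart-type lactate dehydrogenase subunit, had a peak of 1584 bp centred 844 bp into the gene. *Aldoa*, the muscle-type aldolase, has 2 gene identifiers in the annotation, and the one with a ratio of 0.570 had a peak of 793 bp centred 170 bp downstream. That identifier was the one counted because it had a selected peak, so the 20% depends on this choice. *Pfkm* had a peak of 2598 bp that was dropped because its midpoint also lay within 1 kb of a CpG-rich 5′ end. At *Gapdh* and *Eno3* a peak came within 1 kb without its midpoint, and *Hk1*, *Pfkp*, *Aldoc*, *Tpi1* and *Ldha* had none. *Ldha* and *Ldhb*, which encode partner subunits of the same tetramer, therefore differed in the list. All of these counts are small. The lists were not matched on the ratio and were chosen with earlier results known, so only counts are given.

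Zinc finger genes had the most genes with a selected peak of the families examined. Genes named Zfp, many of which encode KRAB zinc finger repressors of transposable elements, made up 59 of the 945 genes. That was 59 of the 192 CpG-poor Zfp genes (30.7%), beside 7.97% for all CpG-poor genes. Because the share depends on the CpG ratio, Zfp genes were set beside all other genes of like ratio. Between 0.3 and 0.4, 16 of 49 Zfp genes (32.7%, interval 21.2 to 46.6%) and 103 of 1469 other genes (7.01%, 5.81 to 8.43%) had a selected peak. Between 0.4 and 0.5 the counts were 21 of 47 (44.7%, 31.4 to 58.8%) and 216 of 1357 (15.9%, 14.1 to 18.0%). Between 0.2 and 0.3 they were 5 of 24 (20.8%, 9.24 to 40.5%) and 61 of 2251 (2.71%, 2.12 to 3.47%). In the highest bin, between 0.5 and 0.6, the shares of 32.7% and 29.5% lay close together, with overlapping intervals. The 59 genes came from 13 chromosomes, with 14 on chromosome 13, 13 on chromosome 7 and 12 on chromosome 17, where Zfp genes lie in clusters. Members of a cluster resemble each other in sequence, and reads with more than 1 location had been discarded, so the absence of a peak at a Zfp gene is uncertain, and neighbours in a cluster are not independent.

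**Figure D2:**
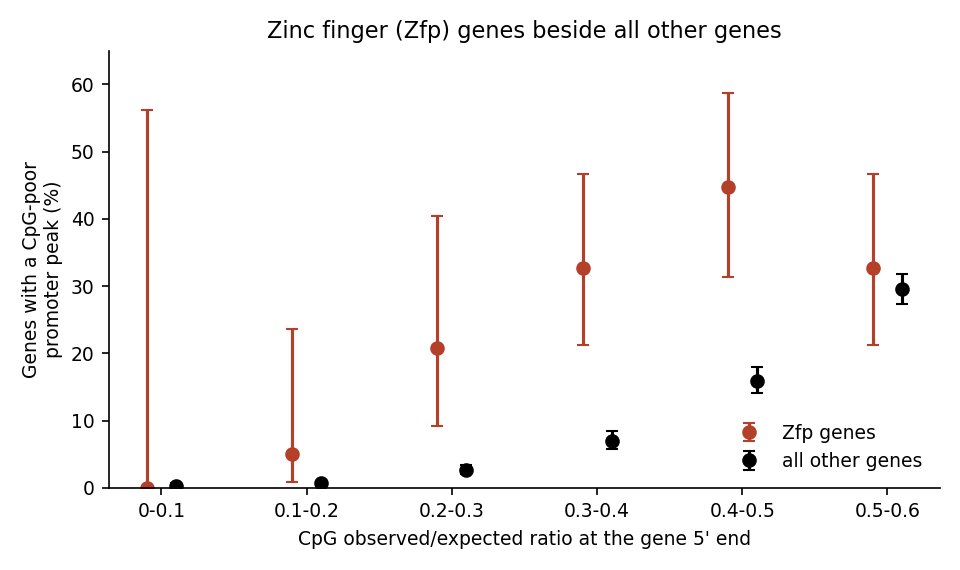
Share of genes (%, vertical axis) with a CpG-poor promoter peak by the CpG observed/expected ratio at the 5′ end (bins, horizontal axis), for Zfp genes in red and all other protein-coding genes in black, with Wilson 95% intervals. Zfp genes lay above the others between 0.2 and 0.5 (44.7% against 15.9% between 0.4 and 0.5) and beside them between 0.5 and 0.6; the lowest bin holds 3 Zfp genes.

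Other families ranged widely around the 7.97% of all CpG-poor genes, and were not matched on the ratio. The share with a selected peak ran from 0.281% of genes with a ratio up to 0.1 to 29.6% between 0.5 and 0.6, and the median ratio of the CpG-poor genes was 0.106 for Olfr, 0.0912 for Vmn, 0.133 for Serpin, 0.136 for Cyp, 0.302 for Krt, 0.326 for Slc and 0.350 for Tmem. Solute carriers (Slc), membrane transporters, had a selected peak at 26 of 203 CpG-poor genes (12.8%), and transmembrane protein genes (Tmem) at 16 of 110 (14.5%). Cytochrome P450 genes (Cyp) had one at 3 of 91 (3.30%), namely *Cyp27a1*, *Cyp4f13* and *Cyp4f17*. Serpin genes, which encode mostly protease inhibitors, had one at 1 of 60, *Serpinh1*, a collagen chaperone. Olfactory receptor genes (Olfr) were all CpG-poor, and 0 of 1135 had a peak. Taking 3 counts as the limit that a count of 0 allows, the share was at most 0.264%. The 330 CpG-poor vomeronasal receptor genes (Vmn) and the 53 keratin genes (Krt) had none either. The 88 ribosomal protein genes had no selected peak among 15 CpG-poor members, and the 67 histone genes had none among 3. At 2 of the 15 and 1 of the 3 a peak came within 1 kb without its midpoint. Another of the 3 had a peak midpoint that also lay near a CpG-rich 5′ end. Of the CpG-rich ribosomal protein and histone genes, 52 and 31 had a peak midpoint. Over all genes with a ratio above 0.6, the share with a midpoint ran from 46.3 to 59.1% by bin of the ratio.

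Genes of the sirtuin family, to which the knocked-down gene belongs, were looked at after their values were known. All 7 had a peak midpoint within 1 kb, beside 29.8% of all protein-coding genes. The 4 with a CpG-poor 5′ end, *Sirt1*, *Sirt4*, *Sirt5* and *Sirt6*, all had a selected peak. Their median ratio was 0.553, and 29.6% of all genes between 0.5 and 0.6 had a selected peak. *Sirt6*, the nuclear deacetylase targeted by the shRNA, had a peak of 1888 bp at chr10:81626735-81628622, centred 118 bp into the gene and shared with the 5′ end of *Ankrd24*. *Sirt4*, a mitochondrial sirtuin, had one of 554 bp centred 3 bp from the 5′ end, and *Sirt5*, which removes succinyl groups, had one of 524 bp centred 277 bp upstream (−277 bp). The peak of *Sirt1* was shared with *Dnajc12*. A further 4 genes of stem cell biology were also picked after their values were seen. *Eras*, an mESC-expressed Ras gene, had a peak of 386 bp, *Tert*, the telomerase catalytic subunit, 888 bp, *Sox15*, an HMG-box factor, 1955 bp and *Gdf15*, a stress-induced TGF-beta family member, 1603 bp.

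The selected peaks were intermediate in width. Their median was 935 bp (quartiles 661 and 1487 bp), against 1209 bp (740 and 1961 bp) for 4171 CpG-rich promoter peaks of the same width range, whose 5′ ends all had a ratio above 0.6. For 2511 distal peaks, farther than 3 kb from every protein-coding transcript start, it was 717 bp (546 and 1140 bp). The 5 widest were at *Nfatc3*, *Foxh1* (2941 bp), which encodes a SMAD partner in Nodal signalling, *Nanog*, *Myl6* (2884 bp), a myosin light chain of non-muscle cells, and *Ackr3* (2863 bp), a scavenging chemokine receptor. *Foxh1*, *Nanog* and *Ackr3* had ratios of 0.293 to 0.361 at the 5′ end and of 0.309 to 0.340 at the centre, so these wide peaks lay on CpG-poor DNA. Median GC content was 53.3% in CpG-poor and in CpG-rich promoter peaks and 48.7% in distal peaks. The CpG-poor and CpG-rich promoter peaks thus had the same median GC content despite their different CpG ratios.

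**Figure D3:**
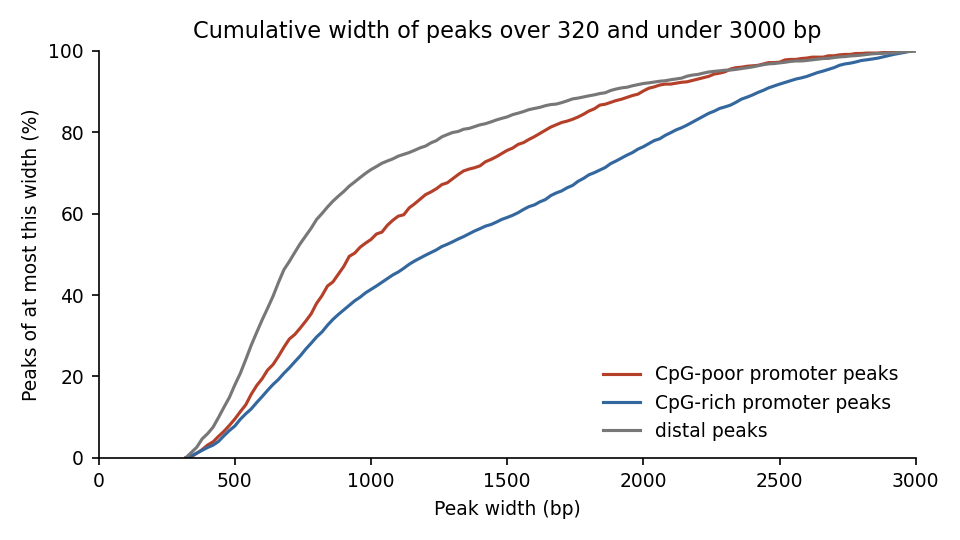
Cumulative share of peaks (%, vertical axis) by peak width (bp, horizontal axis) for CpG-poor promoter peaks (red), CpG-rich promoter peaks (blue) and distal peaks (grey), all over 320 and under 3000 bp. The red curve runs between the others for most widths, with medians of 935, 1209 and 717 bp.

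Peaks at CpG-poor promoters sat inside the gene more often than those at CpG-rich promoters. The midpoint lay downstream of the nearest gene 5′ end in 82.8% of 891 peaks (interval 80.2 to 85.2%) and in 71.5% of 4171 CpG-rich promoter peaks (70.1 to 72.8%). The difference of 11.4 percentage points had an interval of 6.58 to 15.6 points. This interval, like that of every difference below, was set so that all 27 planned differences together were covered at 95%. The median position was 349 bp downstream (quartiles 132 and 555 bp), against 254 bp (quartiles −41 and 546 bp). The 3 fullest bins of 100 bp lay from 200 to 500 bp downstream and held 112, 111 and 117 peaks. In 565 peaks (63.4%) the 5′ end lay inside the peak. The midpoint was in an intron in 435 peaks (48.8%), in an exon in 339 (38.0%) and outside protein-coding genes in 117 (13.1%). Peaks with 5′ ends of both kinds within 1 kb were in neither set, so the selection was not blind to neighbouring genes. The 891 peaks had 945 genes and the 4171 CpG-rich promoter peaks had 4840. The part of neighbouring 5′ ends in the difference of direction was not tested.

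**Figure D4:**
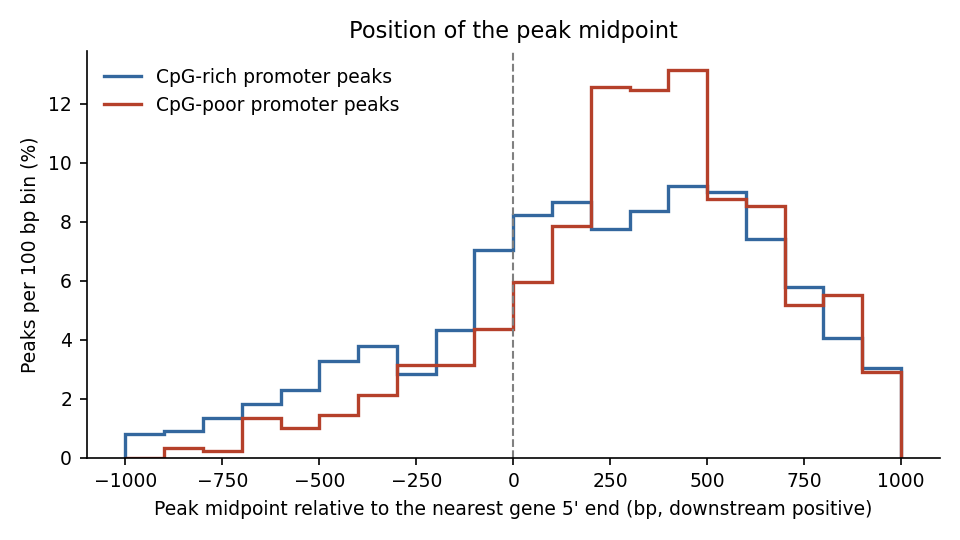
Share of peaks (%, vertical axis) per 100 bp bin of the position of the midpoint relative to the nearest gene 5′ end (bp, downstream positive, horizontal axis), for CpG-poor (red) and CpG-rich (blue) promoter peaks. The red outline is highest between 200 and 500 bp downstream, where each bin holds 12.5 to 13.1% of the peaks, and lies below the blue one over most of the upstream side.

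The direction was examined in other ways because an annotated 5′ end may not be the start in use. Measured from the nearest protein-coding transcript start, the shares were 72.3 and 65.5%, a difference of 6.80 points (1.42 to 11.8). Among peaks under 1000 bp wide they were 84.5 and 68.0%, a difference of 16.5 points (9.75 to 22.2). Among peaks of at least 1000 bp they were 80.9 and 73.9%, and the interval of that difference, −0.212 to 13.0 points, included 0.

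A TATA box was rare at genes with a selected peak. TATAAA began 40 to 20 bases before the 5′ end of 8 of 945 genes (0.847%, interval 0.430 to 1.66%). It was found at 4.13% (3.77 to 4.52%) of 10758 CpG-poor genes without a peak midpoint, at 0.599% (0.418 to 0.859%) of 4840 genes at CpG-rich promoter peaks, and at 2.42% of all protein-coding genes. The difference from CpG-poor genes without a peak was −3.28 points (−4.12 to −1.64). That from genes at CpG-rich promoter peaks was 0.247 points (−0.468 to 1.82). Within ranges of the ratio the former difference was no longer separated from 0. Between 0.4 and 0.6 it was −1.03 points (−2.23 to 0.879), and with a limit of 0.4 it was −3.29 points (−4.69 to 2.33).

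The 8 genes with TATAAA were of several kinds. *Lefty2*, *Id1*, an inhibitor of bHLH factors induced by BMP signals, and *Aqp3*, a water and glycerol channel, had the first T of the motif 29 bases before the 5′ end. In *Tubb2a*, a beta-tubulin, and *Art1*, an ADP-ribosyltransferase, it lay at 30 bases, in *Icam1* at 32, in *H2-M5*, a non-classical MHC class I gene, at 24 and in *Nr0b1* at 21. *Art1* had the lowest ratio of the 8 (0.145) and *Id1* the highest (0.597). The peak midpoint lay downstream in 7 of them, from 264 bp in *Aqp3* to 953 bp in *Nr0b1*, and upstream in *Tubb2a* (−126 bp). The 5′ end, and so the TATA motif near it, lay outside the peak in *Lefty2*, *Nr0b1*, *Id1*, *Aqp3* and *Art1*, and the 5′ end lay inside the peak in *Icam1*, *Tubb2a* and *H2-M5*. None of the 8 had an octamer, SOX, ESRRB, KLF or AP-1 motif in the central 400 bp. *H2-M5* belongs to a multigene family, so its reads may be incompletely assigned.

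Motifs of transcription factors in the central 400 bp of the peaks were searched as exact letters on both strands. The set was the octamer of OCT4 (ATTTGCAT), SOX (CATTGTT), ESRRB (TCAAGGTCA), KLF (CCACACCC), AP-1 (TGANTCA), STAT (TTCCNGGAA), YY1 (AANATGGC), NF-Y (CCAAT) and the OCT4-SOX2 composite, which overlaps most letters of the SOX motif and the octamer. Their fixed letters hold no CpG. The free base (N) of the STAT motif can complete one, as can a G after the final C of the YY1 and KLF motifs. In 409 of 891 peaks (45.9%) none was present, and 151 (16.9%) held an octamer, SOX, ESRRB, KLF or AP-1 motif. These 2 shares were not counted over all peaks, so they describe the selected peaks without a comparison. Over all 11106 peaks the shares of single motifs were 1.52% for the octamer, 4.03% for SOX, 1.01% for ESRRB, 3.74% for KLF, 9.19% for AP-1, 1.65% for STAT, 8.96% for YY1 and 38.8% for NF-Y.

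For the motifs of pluripotency factors, all intervals of the difference from CpG-rich promoter peaks included 0. The octamer was found in 1.46% against 0.911% of CpG-rich promoter peaks, a difference of 0.548 points (−0.465 to 2.45). ESRRB, an orphan nuclear receptor of mESCs, had its motif in 1.23% against 0.647% (0.587 points, −0.312 to 2.39). The shares for KLF were 4.49 and 3.43% (1.06 points, −0.918 to 3.86), and for SOX 3.03 and 2.83% (0.201 points, −1.42 to 2.66). STAT, the motif of the LIF effector STAT3, had 1.91 and 1.63% (0.278 points, −0.956 to 2.37).

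YY1, a zinc finger factor bound at many CpG island promoters, had its motif less often in the selected peaks. It was present in 6.29% (interval 4.87 to 8.07%) against 9.78% (8.92 to 10.7%) of CpG-rich promoter peaks, a difference of −3.50 points (−6.09 to −0.182). The interval included 0 in the central 200 bp (−2.89 to 1.57 points) and in the central 1000 bp (−8.77 to 0.0480). The YY1 motif ends in C, and a following G would make a CpG. The peaks were selected on a low CpG ratio, and the part of that ratio in this difference was not tested. NF-Y, a CCAAT-binding factor of promoters, was at 39.6% against 36.5% (3.08 points, −2.41 to 8.75).

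Set beside distal peaks, the selected peaks had fewer AP-1 and SOX motifs. The AP-1 motif, bound by FOS and JUN family dimers, was in 8.64% against 13.6% (12.3 to 15.0%) of distal peaks, a difference of −4.94 points (−8.32 to −1.01), and in 6.28% of CpG-rich promoter peaks. In the central 200 bp the interval included 0 (−5.22 to 0.107 points). The SOX motif was in 3.03% against 5.77% (−2.74 points, −4.85 to −0.0619). It was no longer separated in the central 200 bp, among peaks CpG-poor at the centre or among peaks with no transcript start of a higher ratio. The intervals for the octamer (−2.02 to 1.36 points), ESRRB (−1.06 to 1.93), KLF (−1.49 to 3.58), STAT (−1.68 to 1.95), YY1 (−4.68 to 1.52) and NF-Y (−6.52 to 5.31) all included 0. GC content differed between these sets as given above, and its part in the motif counts was not tested.

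**Figure D5:**
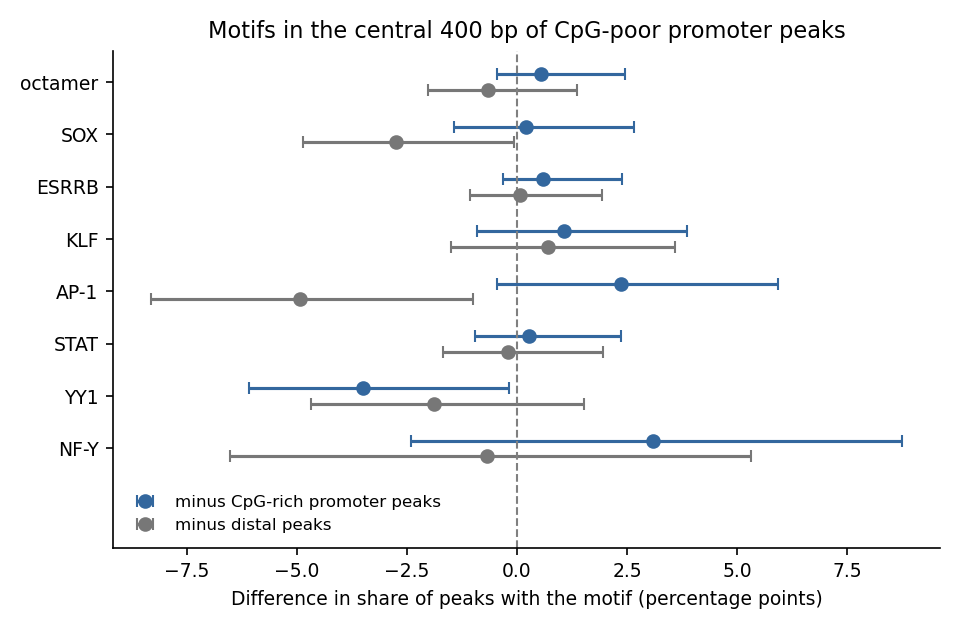
Difference in the share of peaks with each motif in the central 400 bp (percentage points, horizontal axis), CpG-poor promoter peaks minus CpG-rich promoter peaks (blue) and minus distal peaks (grey). Bars are intervals that cover all 27 planned differences together at 95%; those of YY1 against CpG-rich promoter peaks and of SOX and AP-1 against distal peaks leave out 0.

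The OCT4-SOX2 composite was in the central 400 bp of 0 of 891 peaks, and of none of the 11106. The Wilson upper limit for 0 of 891 is 0.429%, and a limit of 3 counts gives 0.337%. Over whole peaks it occurred in 2 of the 11106, one of them the peak of *Nanog*, the sequence of which is shown above. That match lies 75 bases upstream of the 5′ end, inside the peak but away from its centre. A match is a run of letters, and exact letters miss most sites that a factor can bind.

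CpG-poor promoter peaks had other peaks near them more often than CpG-rich promoter peaks. Another midpoint lay within 10 kb of 31.1% (interval 28.1 to 34.2%), against 21.3% (20.1 to 22.6%) of CpG-rich promoter peaks, a difference of 9.80 points (4.77 to 15.2). For distal peaks it was 40.7% (38.8 to 42.6%), which put the selected peaks 9.61 points lower (difference −9.61, −15.2 to −3.77). Within 50 kb the former difference was 10.6 points (5.36 to 15.4), whereas the latter was −0.119 points (−5.52 to 4.92). The neighbour was a CpG-rich promoter peak for 109 of the 891 (12.2%), a distal peak for 56 (6.29%) another CpG-poor promoter peak of any width for 55 (6.17%) and a peak of none of these kinds for 103 (11.6%), where a peak with neighbours of several kinds counts under each. Of the 4171 CpG-rich promoter peaks, 294 (7.05%) had a CpG-rich promoter neighbour, 268 (6.43%) a distal one, 102 (2.45%) a CpG-poor promoter one and 320 (7.67%) one of the remaining kind. *Sirt4* and *Zfp710* had the most, with 4 others within 10 kb, followed by *Midn*, *Gm42742* and *Pagr1b* with 3. The peaks of *Nanog* and *Tdh* each had 2 others within 10 kb.

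Repeats took up little of the selected peaks. A median of 7.61% of their bases was repeat-masked in the reference, against 8.37% for CpG-rich promoter peaks and 13.5% for distal peaks. More than 50% of the bases were masked in 0.112% of them, against 0.0959% of CpG-rich promoter peaks (0.0163 points, −0.305 to 1.19) and 5.54% of distal peaks (−5.42 points, −7.03 to −3.70). Reads with more than 1 location had been discarded, so repeats are under-represented in all 3 sets.

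Genes with a selected peak differed in structure from the other CpG-poor genes. A single exon in all transcripts was annotated for 0.847% of the 945 genes (interval 0.430 to 1.66%) and for 8.82% (8.30 to 9.37%) of 10758 CpG-poor genes without a peak midpoint, a difference of −7.97 points (−9.02 to −6.23). Without genes named Olfr, Vmn and Gm it was −5.42 points (−6.45 to −3.68), and between ratios of 0.4 and 0.6 it was −6.02 points (−8.04 to −3.52). The median gene length was 15447 bp with a selected peak, 11266 bp without a peak and 23506 bp at CpG-rich promoter peaks.

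Selected peaks were found on all chromosomes except Y. On X, 4.89% (interval 3.52 to 6.76%) of CpG-poor genes had one, including *Nr0b1*, *Trap1a* and *Eras*, against 8.29% (7.79 to 8.82%) on autosomes. The difference was −3.40 points (−5.56 to −0.0804), with an upper bound close to 0. Without Olfr, Vmn and Gm genes it was −4.61 points (−7.19 to −0.667). The genes on X and on autosomes were not matched on the CpG ratio, with which the share differed. The sex of the cells and their number of X copies were not recorded in the list. The part of copy number in this difference was not tested. Among autosomes the share ran from 5.90% on chromosome 14 to 11.4% on chromosome 19.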

How the data were processed

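H3K56ac ChIP-seq and input libraries of Scramble and Sirt6 KD mESCs were grouped by their sample titles. Per the paper's methods, the authors removed adapters (Trim Galore), aligned to mm10 (bowtie, single-location reads only), dropped duplicate reads (Picard) and used MACS2 for peak calling. Peaks in blacklisted regions were taken out, and the rest were merged over libraries (GenomicRanges). The deposited file holds peak starts and ends, and a score that is 0 throughout. Per-library read counts and the authors' group test were not analysed here. Merging hides which library gave a peak.

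Python 3.11.15, numpy 2.4.6, scipy 1.17.1, pandas 2.3.3 and matplotlib 3.10.9 were used. CpG ratios covered 1001 bp, and repeats were the lower-case bases of GRCm38. Shares have Wilson intervals, and differences Newcombe intervals at a level of 99.8% each. Interval, motif and distance code was tested on simulated data. No p-values were computed.

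Named genes were those of the gene lists with a selected peak, the 5 widest and 5 narrowest, the 5 lowest ratios, the 5 nearest to each limit on either side, TATA and composite motif genes, and the 5 with the most neighbours. The peaks, lists and tests were chosen with earlier results of these data known. Others, named after their values were seen, are marked.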

Additional observations from a re-analysis of the deposited data

How the results depend on the processing

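No paired analysis was possible because the deposited list merges the libraries and holds no value per replicate. For the same reason no replicate could be left out, and the list carries no depth. Of 92 alternative differences, 71 kept their direction, with an interval that left out or included 0 as in the results above. Among the 71 are differences whose intervals included 0 both times, such as all of those for the octamer. The count leaves out 8 for the OCT4-SOX2 composite, whose difference above was 0 and whose intervals all included 0. The number of CpG-poor promoter peaks was 421 with a ratio limit of 0.5, 199 with 0.4 and 1845 with 0.7, and between 596 and 1095 under the other alternatives, which include 649 when the peak centre and all transcript starts also had to be CpG-poor, an alternative chosen after seeing the data, as were the splits by width, the ratio range of 0.4 to 0.6 and, for single-exon genes, the omission of Olfr, Vmn and Gm.

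Intervals came to include 0 for the direction of the midpoint in peaks of at least 1000 bp (6.99 points), for TATA against CpG-poor genes without a peak with a limit of 0.4 (−3.29) and between 0.4 and 0.6 (−1.03), and for neighbours within 50 kb against distal peaks (−0.119). They did so for SOX against distal peaks in the central 200 bp (−1.71), with a CpG-poor centre (−2.34) and with no transcript start of a higher ratio (−2.83), for AP-1 against distal peaks in the central 200 bp (−2.85) and for YY1 against CpG-rich promoter peaks in the central 200 bp (−1.05) and 1000 bp (−4.65). AP-1 against CpG-rich promoter peaks came to leave out 0 in the central 1000 bp (4.46 points, 19.4 against 15.0%).

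Differences whose intervals included 0 throughout changed sign for TATANA in place of TATAAA against genes at CpG-rich promoter peaks (−0.0807), SOX against CpG-rich promoter peaks in 200 bp (−0.228), and, against distal peaks, KLF in 200 bp (−0.156), ESRRB in 200 bp (−0.268), in 1000 bp (−1.31) and with no transcript start of a higher ratio (−0.172), STAT in 200 bp (0.152), in 1000 bp (0.00724) and with a CpG-poor centre (0.224), and NF-Y with a CpG-poor centre (0.0819). The cause of these changes was not tested.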
